A study of Drosophila melanogaster with 18 samples.

Results

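HSP90 is an abundant cytosolic chaperone that works as an ATP-driven dimer and finishes the folding of kinases, nuclear receptors and Argonaute proteins. It acts with a set of co-chaperones, which bring clients to it, set the pace of its ATP cycle or pass clients on for destruction. In *Drosophila* the cytosolic HSP90 is encoded by *Hsp83*, which is strongly expressed without stress and is also a heat-shock (HS) gene. The mRNAs of *Hsp83* and of 6 co-chaperone genes were followed in S2 cells, 7 of the 15602 genes in the table of mRNA levels. They were chosen by name, as genes with a known role beside HSP90, and all 7 were found. Earlier results of these data were known when they were chosen. *Stip1* is the gene formerly called *Hop*, *p23* was formerly CG16817, and *STUB1* was formerly *CHIP*. *Stip1* is not *hop*, the gene of the JAK kinase, and the 2 were kept apart by identifier.

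S2 is a *Drosophila* line derived from embryos, with traits of haemocytes, the blood cells of the fly. RNA-seq of poly(A)+ RNA was done on cells after 30 min of HS and on cells before HS (non-HS, NHS), with 2 biological replicates each and 4 libraries in all. None of these cells received dsRNA, and all were grown in M3+BPYE medium with 10% FBS. HS was started by a volume of hot serum-free medium (48°C) that matched the culture, and lasted 30 min at 37°C. The sources name this medium for HS cells, so heat and the change of medium cannot be told apart. Levels are FPKM, the fragments of an mRNA scaled for its length and for the size of the library, which permits a comparison between genes as well as between libraries. FPKM are relative to the library, so a loss that all mRNAs share does not show in them. The 16 PRO-seq samples of the series, which measure nascent transcription, were not analysed here.

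The FPKM summed to 923996 and 926922 in the HS libraries and to 831628 and 837852 in the NHS libraries. The deposited table does not give depth in reads, but the most frequent ratio among very low values placed HS replicates 1 and 2 at 60.1% and 69.3%, and NHS replicate 2 at 77.0%, of the depth of NHS replicate 1 (28.7% to 29.8% of the compared genes fell in the most frequent ratio). These percentages follow the factor by which each library was scaled. That factor is not stated to be the depth in reads, so they only approximate depth. Of 13 haemocyte markers, 11 were at 1 FPKM or more in each library, and the summed markers stood at 405 and 478 FPKM in HS cells and at 403 and 510 FPKM in NHS cells. *Pxn*, a matrix peroxidase gene, was the most abundant of them, and *drpr*, an engulfment receptor gene, was lower at 21.4 and 22.1 FPKM in HS cells against 35.6 and 39.8 FPKM in NHS cells (limma adjusted p = 0.046). *NimC1* and *Sr-CI*, both phagocytic receptor genes of haemocytes, stayed below 1 FPKM in each library. A second list held 13 markers of other cell types and of crystal cells, which are themselves a class of haemocyte. Of the 13, 10 were matched, while *vas*, *nos* and *PPO1* were not. Of these 10 markers, 2 reached 1 FPKM in each library, *elav* of neurons and *PPO2* of crystal cells. The 10 summed to 13.4 and 15.1 FPKM in HS cells and to 11.1 and 10.3 FPKM in NHS cells. The haemocyte markers *Hml* and *He* split by replicate number in opposite directions (named after their values were seen). *Hml* stood at 4.45 and 20.7 FPKM in HS replicates 1 and 2 and at 5.69 and 22.5 FPKM in NHS replicates 1 and 2, while *He* stood at 5.36 and 1.21 FPKM in HS cells and at 5.97 and 1.09 FPKM in NHS cells.

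*Hsp83* rose after 30 min of HS and was the only gene of the 7 to pass the test. It stood at 6748 and 6454 FPKM in the HS libraries, against 776 and 821 FPKM in the NHS libraries. Both HS libraries lay far above both NHS libraries, and the replicates of a condition differed by little. The means were 6601 ± 208 FPKM in HS cells and 798 ± 31.7 FPKM in NHS cells (SD, n = 2 each), a ratio of 8.27. The log2 fold change on the log2(FPKM + 1) scale was 3.05 (standard error, SE, 0.08; 95% interval from 2.84 to 3.26). Its adjusted p was 0.00083 from limma, with the Benjamini-Hochberg adjustment over the 7815 genes that had a mean of at least 1 FPKM. At an adjusted p under 0.001, the FDR of the study, 0.128% of these genes were higher. By this p *Hsp83* ranked 9 among the tested genes, and by the size of its change it ranked 40. The interval corresponds to a rise of 7.14-fold to 9.55-fold. In bulk RNA, more cells with a transcript and more transcript per cell cannot be told apart.

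The call of *Hsp83* at 0.001 needed all 4 libraries. With a library left out, limma gave an adjusted p of 0.036 without HS replicate 1, 0.035 without HS replicate 2, 0.038 without NHS replicate 1 and 0.025 without NHS replicate 2. In these fits the log2 fold change stayed between 3.01 and 3.09, and the call at 0.05 held in each. Each of these fits leaves a condition with a single library, which is assumed to vary like the pair of the other condition.

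The 6 co-chaperone genes did not pass the test. At an adjusted p under 0.05 from limma, 1 of the 7 genes was higher (*Hsp83*), 0 were lower and 6 did not pass, where 3.31% of all tested genes passed, 1.75% as higher and 1.56% as lower. None of the 6 passed an unadjusted p of 0.05 either, which 17.9% of all tested genes did. A list of 6 genes is too short to tell 0 calls from either share. Their log2 fold changes ran from -0.16 to 0.16, with a median of 0.07. Over all tested genes the median was -0.02 and the quartiles were -0.17 and 0.13.

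**Figure D1:**
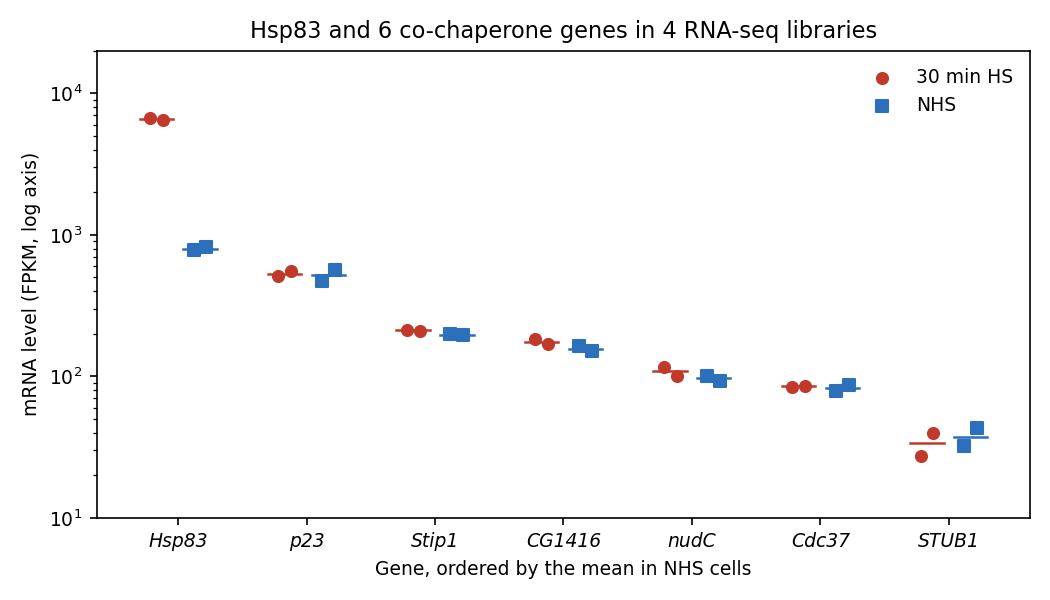
mRNA levels of *Hsp83* and 6 co-chaperone genes, in FPKM on a log axis. Each point is a library (red circles, 30 min HS; blue squares, NHS), each line is the mean of 2 replicates, and the genes are ordered by their mean in NHS cells. *Hsp83* stands at 6454 and 6748 FPKM in HS cells against 776 and 821 FPKM in NHS cells, while the HS and NHS points of each co-chaperone lie at nearly the same height.

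*Stip1* joins HSP70 to HSP90 and lets a client pass between them. Its mRNA stood at 214 and 210 FPKM in HS cells, against 198 and 196 FPKM in NHS cells. Both HS libraries were above both NHS libraries, as they were for 20.5% of all tested genes. The log2 fold change of 0.11 (SE 0.08) had a 95% interval from -0.12 to 0.33 and an adjusted p = 0.63 from limma. A rise of more than 1.26-fold lies outside this interval.

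*CG1416* is the fly counterpart of Aha1, the activator of the HSP90 ATPase. It stood at 183 and 168 FPKM in HS cells, against 163 and 151 FPKM in NHS cells, again with both HS libraries above both NHS libraries. Its log2 fold change was 0.16 (SE 0.10, 95% interval -0.11 to 0.42, adjusted p = 0.54 from limma). *p23* encodes the co-chaperone that stabilizes the ATP-bound form of HSP90 and slows its ATPase. It was the most abundant co-chaperone mRNA, at 510 and 556 FPKM in HS cells and at 474 and 563 FPKM in NHS cells. Its HS values fell inside the range of its NHS values, and its log2 fold change was 0.04 (SE 0.12, 95% interval -0.28 to 0.37, adjusted p = 0.92 from limma).

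*Cdc37* encodes the adaptor that brings protein kinases to HSP90. It stood at 84.3 and 85.5 FPKM in HS cells, within the NHS values of 78.9 and 87.5 FPKM. The log2 fold change was 0.03 (SE 0.10, 95% interval -0.24 to 0.30, adjusted p = 0.93 from limma). *nudC* belongs to a family that was first known from nuclear movement along microtubules and that acts with HSP90 in mammals. It stood at 117 and 101 FPKM in HS cells, against 101 and 92.4 FPKM in NHS cells, and the lower HS library lay just within the NHS range. Its log2 fold change was 0.16 (SE 0.12, 95% interval -0.16 to 0.48, adjusted p = 0.59 from limma).

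*STUB1* encodes a ubiquitin ligase that binds HSP70 and HSP90 and marks their clients for the proteasome. Its mRNA was the scarcest of the 7, at 27.4 and 40.1 FPKM in HS cells and at 32.1 and 43.0 FPKM in NHS cells. It was lower in replicate 1 than in replicate 2 of both conditions, by 0.54 on the log2 scale in HS cells and by 0.41 in NHS cells. Among all tested genes, 91.0% had a smaller difference between the HS replicates and 87.2% between the NHS replicates. The log2 fold change of *STUB1* was -0.16 (SE 0.24; limma, adjusted p = 0.83). Its 95% interval from -0.82 to 0.49 is the widest of the 7 and still holds a fall to 0.57 of the NHS level or a rise of 1.41-fold. The fit behind this interval has no term for the replicate number. With such a term the log2 fold change of *STUB1* was again -0.16, with an SE of 0.07 (limma, adjusted p = 0.23). The sources tie no culture or day to a replicate number.

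For the other 5 co-chaperones, the upper ends of the intervals lie between 1.23-fold and 1.40-fold and the lower ends between 0.82 and 0.93 of the NHS level. In this fit, which has no term for the replicate number, the libraries therefore leave room for small changes of these mRNAs in either direction. With such a term the SEs of the 5 ran from 0.05 to 0.07, and limma gave an adjusted p of 0.15 or more for each. The direction itself depended on the scaling. Rescaling the libraries to the ribosomal protein mRNAs moved the median of all genes by -0.20 on the log2 scale. It put *Stip1* (-0.10), *CG1416* (-0.05), *nudC* (-0.04), *Cdc37* (-0.18) and *p23* (-0.16) below 0, while *Hsp83* stood at 2.84 with an adjusted p = 0.00095 from limma. Relative to the median of all genes, *Hsp83* lay between 2.81 and 3.11 under every setting tried, *CG1416* between 0.11 and 0.24, *nudC* between 0.08 and 0.29 and *Stip1* between 0.08 and 0.19. *Cdc37* (-0.02 to 0.14), *p23* (-0.05 to 0.19) and *STUB1* (-0.41 to 0.12) lay on either side of it.

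**Figure D2:**
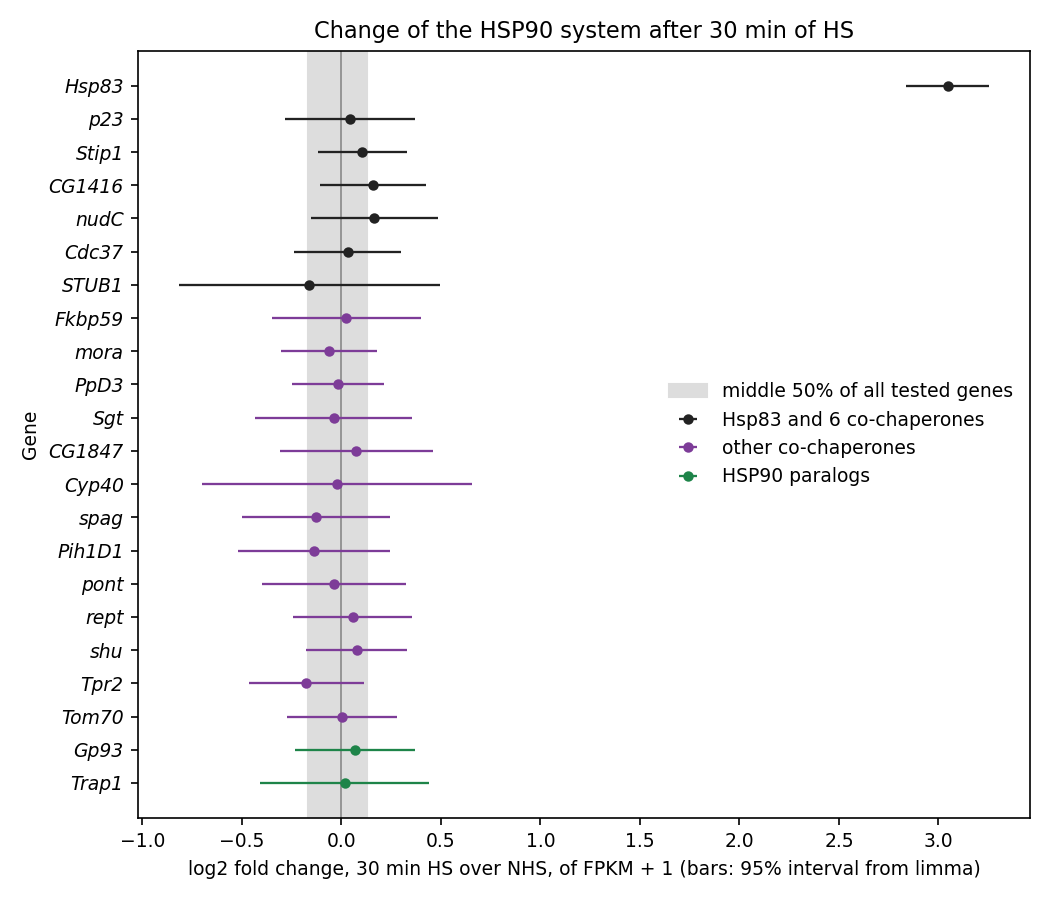
log2 fold changes of FPKM + 1, 30 min HS over NHS, for *Hsp83* and 6 co-chaperone genes (black), 13 other co-chaperone genes (purple) and 2 HSP90 paralogs (green), with 95% intervals from limma as bars. The grey band spans the quartiles of all tested genes (-0.17 to 0.13). *Hsp83* stands alone at 3.05, and the interval of every other gene shown includes 0.

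The order of the 7 mRNAs by level was the same in each of the 4 libraries, with *Hsp83* first, followed by *p23*, *Stip1*, *CG1416*, *nudC*, *Cdc37* and *STUB1*. Neighbours in this order did not overlap within a condition. The closest were *nudC* and *Cdc37*, where the lowest *nudC* value was 101 FPKM and the highest *Cdc37* value 85.5 FPKM in HS cells, and 92.4 and 87.5 FPKM in NHS cells. *Hsp83* exceeded *p23*, the next in order, 12.4-fold by the means in HS cells and 1.54-fold in NHS cells. Among all genes, *Hsp83* ranked 20 and 22 by FPKM in the HS libraries and 133 and 124 in the NHS libraries. It made up 0.730% and 0.696% of all FPKM in HS cells, against 0.0933% and 0.0980% in NHS cells. *STUB1* had 57.4% to 69.4% of the tested genes below it in the 4 libraries, against 97.5% to 97.8% for *p23*.

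The ratio of *Hsp83* to a co-chaperone within a library does not depend on the scaling between libraries. Per *Stip1* mRNA there were 31.5 and 30.8 *Hsp83* mRNAs in HS cells, against 3.92 and 4.20 in NHS cells, as ratios of FPKM. The *Hsp83* to *p23* ratio was 13.2 and 11.6 in HS cells and 1.64 and 1.46 in NHS cells. The ratio to *Cdc37* was 80.0 and 75.5 in HS cells and 9.84 and 9.38 in NHS cells. For *STUB1* it was 247 and 161 in HS cells and 24.2 and 19.1 in NHS cells. For all 6 co-chaperones the HS ratios were far above the NHS ratios, and the ratio grew by 7.37-fold for *nudC*, 7.41-fold for *CG1416*, 7.68-fold for *Stip1*, 8.02-fold for *p23*, 8.09-fold for *Cdc37* and 9.28-fold for *STUB1*. Each had p = 0.33 in a two-sided exact permutation test, the smallest p that 2 libraries against 2 can give. With a library left out, the log2 growth of the ratio to *STUB1* ran from 2.91 to 3.52, so the order of the 6 growths is not fixed.

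The 6 co-chaperones summed to 1135 and 1160 FPKM in HS cells and to 1047 and 1133 FPKM in NHS cells. Their sum stood above *Hsp83* in NHS cells and below it in HS cells, with *Hsp83* at 5.95 and 5.56 times the sum in HS cells and at 0.741 and 0.725 times the sum in NHS cells. *Hsp83* thus held 85.6% and 84.8% of the FPKM of the 7 genes in HS cells, against 42.6% and 42.0% in NHS cells. The spread of these shares between replicates was below 1 percentage point in both conditions.

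**Figure D3:**
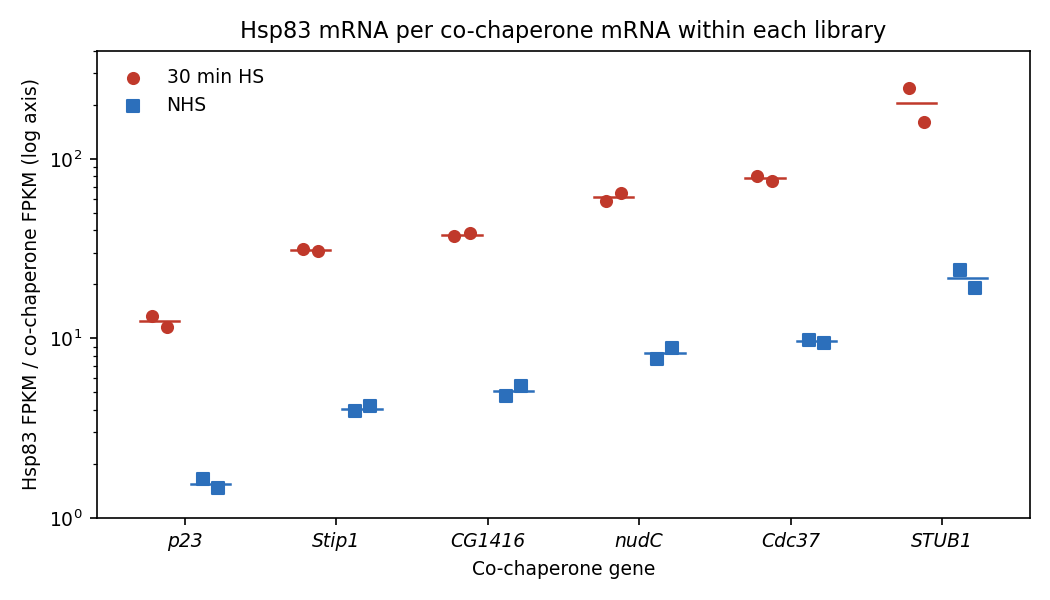
Ratio of *Hsp83* FPKM to the FPKM of each co-chaperone within a library, on a log axis (red circles, 30 min HS; blue squares, NHS; lines, means of 2 replicates). Every HS ratio lies above every NHS ratio of the same gene, for example 30.8 and 31.5 against 3.92 and 4.20 for *Stip1*.

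A wider list of genes of the HSP90 system had no call either. Of 16 other co-chaperone genes listed, 13 were matched and all 13 were tested. At an adjusted p under 0.05 from limma 0 were higher and 0 lower, where 3.31% of all tested genes passed. At an unadjusted p under 0.05 there were also 0, where 17.9% of all tested genes passed. A list of 13 genes is too short to tell 0 calls from either share. The 13 genes had a median log2 fold change of -0.02 (range -0.18 to 0.08). *Sgt*, which encodes a small TPR-domain protein, was the most abundant of these, at 176 and 139 FPKM in HS cells and at 168 and 154 FPKM in NHS cells. *Tpr2*, which encodes a J-domain protein with TPR repeats, had the largest change, -0.18 (SE 0.11; limma, adjusted p = 0.52), with 114 and 101 FPKM in HS cells and 125 and 117 FPKM in NHS cells. The list also holds, named here for their roles after their values were seen, the immunophilin gene *Fkbp59* (log2 fold change 0.03, adjusted p = 0.96) and the phosphatase gene *PpD3*, the counterpart of mammalian PP5 (-0.02, adjusted p = 0.96). Within it, *spag*, *Pih1D1*, *pont* and *rept* encode the R2TP complex, which builds large protein assemblies with HSP90, and their log2 fold changes were -0.13, -0.14, -0.04 and 0.06.

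The other HSP90 proteins of the fly work inside organelles. *Gp93*, of the endoplasmic reticulum, stood at 315 and 312 FPKM in HS cells, between its NHS values of 276 and 324 FPKM (log2 fold change 0.07 with an SE of 0.11; limma, adjusted p = 0.85). *Trap1*, of mitochondria, stood at 60.1 and 72.1 FPKM in HS cells, against 58.7 and 72.3 FPKM in NHS cells (log2 fold change 0.02 with an SE of 0.16; limma, adjusted p = 0.98). *Hsp83* was 21.4 and 20.7 times as abundant as *Gp93* in HS cells and 2.82 and 2.53 times in NHS cells. Of the 3 HSP90 genes, *Hsp83* was the most abundant in all 4 libraries and the only one called.

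Genes whose proteins are clients of HSP90 in flies, yeast or mammals had 1 call. Of 20 listed, 17 were matched and 16 tested. At an adjusted p under 0.05 from limma, 1 of the 16 was higher (6.25%, against 1.75% of all tested genes) and 0 were lower, with a median log2 fold change of 0.07. The called gene was *Gcn2*, a kinase gene of the response to amino acid shortage, at 13.3 and 16.7 FPKM in HS cells and listed at 0 in both NHS libraries. *PNPase*, a gene that overlaps *Gcn2* on the opposite strand, was listed at 13.0 and 11.4 FPKM in HS cells and also at 0 in both NHS libraries, and no fold change is given for either. *Gcn2* was tested only through its HS values, since its NHS level is under the minimum of 1 FPKM. Its direction was therefore fixed by the filter, and its call does not bear on whether client genes rise. A value of 0 can be a failed estimate in this kind of table, and whether it is one here was not tested. The adjusted p of *Gcn2* from limma was 0.0035, and 0.054 without NHS replicate 1. *AGO2*, the Argonaute of RNA interference and the most abundant client gene, stood at 103 and 117 FPKM in HS cells and at 119 and 141 FPKM in NHS cells, and limma gave it an adjusted p of 0.47 (log2 fold change -0.24).

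An unadjusted p under 0.05 was reached by 4 of the 16 client genes (25.0%), against 17.9% of all tested genes. The 4 include *Gcn2*, whose direction was fixed by the filter, so the share is not read as an excess. Besides *Gcn2* these were *EcR*, *Hsf* and *Cdk4* (named after their values were seen), none of which passed at an adjusted p under 0.05. *Hsf*, the gene of the HS transcription factor, stood at 67.5 and 57.9 FPKM in HS cells and at 51.0 and 45.9 FPKM in NHS cells (log2 fold change 0.36 with an SE of 0.12; limma, adjusted p = 0.24). *EcR*, the ecdysone receptor gene, stood at 19.2 and 20.2 FPKM in HS cells and at 14.3 and 13.1 FPKM in NHS cells (log2 fold change 0.50, SE 0.10, adjusted p = 0.10). *Cdk4*, a cell cycle kinase gene, stood at 23.8 and 24.8 FPKM in HS cells and at 32.2 and 30.0 FPKM in NHS cells (log2 fold change -0.34, SE 0.10, adjusted p = 0.18).

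*Hsp83* had a higher level before HS than each of the inducible HSP genes, of which *Hsp23*, at 95.5 and 76.7 FPKM in NHS cells, was the next. In NHS cells 0 of 15 inducible HSP and partner genes in the table exceeded *Hsp83*, and their sum was 286 and 236 FPKM, so that *Hsp83* stood at 2.71 and 3.48 times the sum. In HS cells 3 of them exceeded it in each library, *Hsp23*, *Hsp26* and *Hsp68*. The sum of the 15 was then 43637 and 36555 FPKM, and *Hsp83* stood at 0.155 and 0.177 times the sum. All 12 tested genes of this list were called higher at an adjusted p under 0.05, against 1.75% of all tested genes. Their log2 fold changes ran from 1.68 to 8.81. Of the 12 genes, 5 had an NHS mean under 1 FPKM (*stv*, *Hsp67Bc*, *Hsp70Ba*, *Hsp70Bbb* and *Hsp70Bc*) and were tested only through their HS values. The direction of these 5 was fixed by the filter, so the count of 12 is partly set by it. The 3 genes under the minimum, *Hsp70Aa*, *Hsp70Ab* and *Hsp70Bb*, each had 0 FPKM in HS cells, and for *Hsp70Bb* this was against 0.896 and 1.35 FPKM in NHS cells. These genes are known HS targets and entered the list as such. Only *Hsp67Ba* among the 12 had a smaller log2 fold change than *Hsp83*. The reads of the near-identical *Hsp70* copies may have been divided among them by the authors' counting, and the single copies are uncertain. The 0 FPKM of 3 copies in HS cells may also be failed estimates, which was not tested. The sum of the 15, its ratio to *Hsp83* and the number of genes above *Hsp83* hold only for the values as listed.

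**Figure D4:**
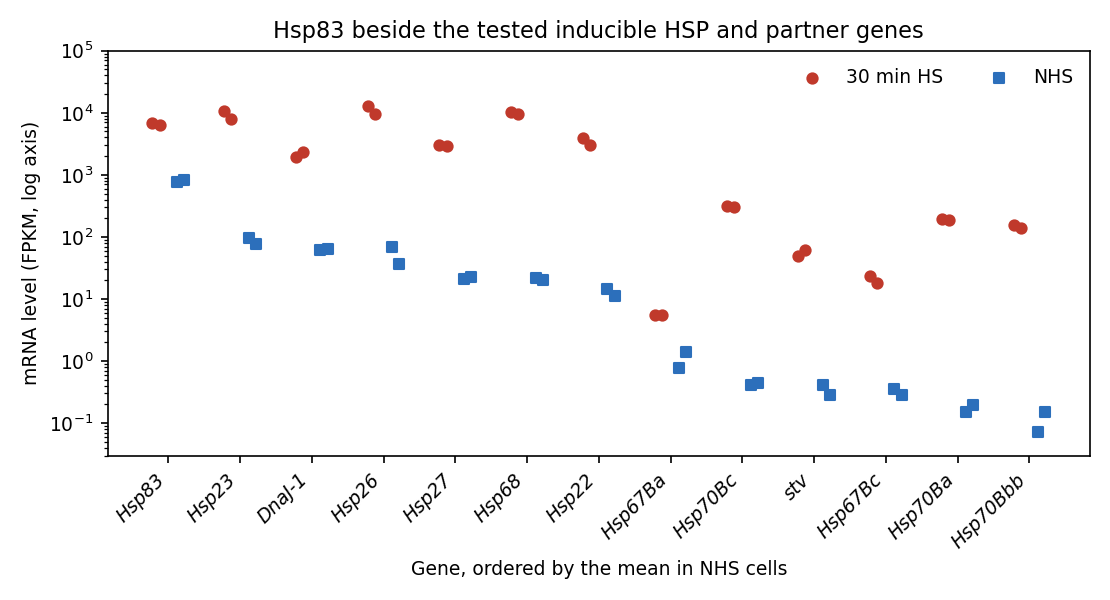
mRNA levels of *Hsp83* and 12 tested inducible HSP and partner genes, in FPKM on a log axis (red circles, 30 min HS; blue squares, NHS; each point a library), ordered by their mean in NHS cells. *Hsp83* is the highest of these genes in NHS cells, at 776 and 821 FPKM, and *Hsp23*, *Hsp26* and *Hsp68* lie above it in both HS libraries.

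The genes most like *Hsp83* in their change across the 4 libraries were found by the distance between centred log2(FPKM + 1) values, among tested genes with at least 1 FPKM in each library. The closest 5 were lncRNA:CR33963 (distance 0.42), *CG15082* (0.55), *CG6770* (0.59), lncRNA:Hsromega (0.61) and *CG3857* (0.64). Among these, *CG6770* had the same log2 fold change as *Hsp83* to 2 decimals, 3.05 (SE 0.31; limma, adjusted p = 0.025), at 1086 and 1244 FPKM in HS cells and 103 and 190 FPKM in NHS cells. Its replicates lay further apart than those of *Hsp83*. lncRNA:Hsromega, the noncoding HS RNA, stood at 537 and 756 FPKM in HS cells and at 105 and 106 FPKM in NHS cells. The distance was measured over 4 libraries in 2 conditions, so it ranks genes mainly by the size of their change. The closest 2 were scarce in NHS cells, lncRNA:CR33963 at 1.69 and 1.06 FPKM and *CG15082* at 1.33 and 1.06 FPKM. At such levels the 1 added to FPKM shrinks the change, so their closeness to *Hsp83* depends on it. By the means without it they rose 11.2-fold and 9.74-fold.

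In the gene models of the BDGP6 assembly, which is not the build used by the authors, all 7 genes lie on the plus strand. *Hsp83*, *Cdc37* and *nudC* are on chromosome arm 3L, *Stip1*, *CG1416* and *STUB1* on 2L and *p23* on 3R. *Hsp83* has 2 annotated transcripts of 2 exons each, with a single intron. *CG14966*, on the opposite strand, overlaps *Hsp83* and stood at 44.2 and 53.2 FPKM in HS cells and at 48.1 and 49.9 FPKM in NHS cells (log2 fold change -0.01, adjusted p = 0.98 from limma). The flanking gene *CG32276* stood at 789 and 784 FPKM in HS cells and at 797 and 754 FPKM in NHS cells (adjusted p = 0.94), and *CG14965*, on the other side, had an adjusted p = 0.63. Neither the gene that overlaps *Hsp83* nor these neighbours passed the test. *Cdc37* overlaps *CG12020* on the same strand, and the reads in the shared stretch cannot be assigned to either gene with certainty. *CG12020* was listed at 0.811 and 1.17 FPKM in HS cells and at 0.108 and 0.211 FPKM in NHS cells, far below *Cdc37*. *nudC* overlaps *CG9674* and *CG13024*, both on the opposite strand. The reads were aligned with a strand setting, but none is stated for the FPKM, so reads of genes that overlap on opposite strands may not have been kept apart.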

How the data were processed

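mRNA of S2 cells was measured by RNA-seq after 30 min of HS and before HS, 2 biological replicates each. Conditions came from the sample labels and replicate numbers from the column names, with 0 columns left unmapped. The authors clipped adapters, aligned reads to dm3 with TopHat2 (strand-specific setting) and deposited FPKM per gene from Cuffnorm; its version and scaling setting are not given in the sources used here. Separate cultures for the replicates are not stated, and p-values measure the spread between these libraries.

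Identifiers were matched to symbols for 14925 of 15602 genes with the Ensembl annotation of BDGP6, and no coordinates are printed. The 7815 genes that averaged 1 FPKM or more were tested as log2(FPKM + 1) with limma 3.58.1 in R 4.3.3 (trend, condition as the only term, Benjamini-Hochberg), in place of the DESeq2 test of the study, as FPKM are not counts. The test was tried on simulated data, with large changes only, in genes well above the minimum level and with independent noise. Changes as small as those of the co-chaperones were not simulated. Relative depth was the most frequent ratio of low values to those of NHS replicate 1 (418 to 578 genes). The table has 3864 genes at 0 in all 4 libraries. Named genes were all 7 members and, from each other list, those called at an adjusted p under 0.05, the most abundant one and the one with the largest change. Members and lists were chosen with earlier results of these data known. Other pseudocounts, filters, scalings, variance settings, a term for the replicate number and leaving out each library were tried. Other computations used Python 3.11.15, numpy 2.4.6, pandas 2.3.3 and matplotlib 3.10.9.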

Additional observations from a re-analysis of the deposited data

How the results depend on the processing

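Over 16 alternative settings, *Hsp83* kept its call as higher (limma, adjusted p under 0.05) in all 16 (log2 fold change 2.82 to 3.09) and under 0.001 in 9. It missed 0.001 with no filter (adjusted p = 0.0067), with quantile normalization (0.0013), with no variance trend (0.0022) and without any 1 library (0.025 to 0.038). None of the 6 co-chaperones passed 0.05 in any setting, with adjusted p from 0.15 to 0.97. Their signs turned in some. Equal totals gave *Stip1* -0.043, *Cdc37* -0.12 and *p23* -0.10, and equal totals without the inducible HSPs gave *Cdc37* -0.054 and *p23* -0.041. Equal totals moved the median of all genes by -0.14. Ribosomal protein scaling gave *Stip1* -0.10, *Cdc37* -0.18, *nudC* -0.043, *CG1416* -0.051 and *p23* -0.16. Without NHS replicate 1, *Cdc37* stood at -0.043 and *p23* at -0.080, and without HS replicate 2 *p23* stood at -0.02. *STUB1* stood at 0.04 without NHS replicate 2 and at 0.11 without HS replicate 1. The ranges over the left-out libraries were -0.04 to 0.10 for *Cdc37*, -0.08 to 0.17 for *p23* and -0.43 to 0.11 for *STUB1*. The growth of the ratio of *Hsp83* to each co-chaperone kept its direction with FPKM + 1 and without each library, the 5 alternatives run for it.

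With the replicate number as a term (replicate block), limma gave *Hsp83* an adjusted p = 0.00036 and the co-chaperones from 0.15 to 0.79. In that fit 3 of the 16 tested client genes were higher, against 334 of the 7815 tested genes. The 3 were *Gcn2*, *EcR* (adjusted p = 0.043 from limma) and *Hsf* (0.043). The direction of *Gcn2* was fixed by the filter, so this count is not read as an excess. The sources tie no culture or day to a replicate number, and the deviations of libraries with the same number had a correlation of 0.22 (7815 genes). Over all genes the block gave 334 higher and 582 lower, against 137 and 122 in the fit without it.

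No client gene was called at 0.001 (0) or without NHS replicate 1 (0 to 1 over the left-out libraries). Over all genes, calls at 0.05 were 280 higher with no filter, 60 higher with a filter of 5 FPKM, 252 lower with equal totals, 364 lower with ribosomal protein scaling and 190 lower with robust variance moderation. Of the calls, 52.9% were higher in the fit reported, 70.7% with no filter, 40.3% with the filter of 5 FPKM, 34.4% with equal totals, 41.9% without the inducible HSPs in the totals, 27.5% with ribosomal protein scaling and 64.9% with no variance trend. Leaving out a library gave 16 to 36 higher and 6 to 34 lower. At 0.001 there were 10 higher and 0 lower. Library depth in reads was not used here.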
